A study of Mus musculus with 29 samples.

Results

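The comparison described here is that of *Rage-/-* with wild-type (WT) female mice at 21 months of age (Old), in the left ventricle (LV). Its members were taken from the sample titles: 6 Old *Rage-/-* and 5 Old WT mice, 11 of the 29 mice of the series. All mice were of the C57BL/6N strain by their labels, fed normal chow and perfused with saline before the heart was frozen, and the *Rage-/-* mice lack RAGE in both its membrane-bound and its soluble form. The construct of the knockout is not described in the sources used here. The other 18 mice, aged 10 weeks (Young, 5 *Rage-/-* and 5 WT) or 12 months (Middle Age, MA, 4 *Rage-/-* and 4 WT), enter only the estimate of the spread and the comparisons between ages. Total RNA of each LV was labelled and hybridised to 1 Illumina bead array, where more of a transcript makes the beads of its probe brighter.

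RAGE, the receptor for advanced glycation end-products, is a pattern recognition receptor encoded by *Ager*. It binds sugar-modified proteins, S100 proteins and the nuclear protein HMGB1, and signals to NF-kB and to further inflammatory pathways. In the resting heart it is present at low level, on endothelial cells, leukocytes, fibroblasts and cardiomyocytes, and its ligands build up with age and injury.

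The Old arrays were of unequal quality. Of the Old *Rage-/-* mice, 4 lay on BeadChip 1 and 2 on BeadChip 5, whereas 3 Old WT mice lay on BeadChip 5, 1 on BeadChip 4 and 1 on BeadChip 6. Only BeadChip 5 thus held both genotypes, and the difference within it is given beside each called gene and many of the other values. The 4 *Rage-/-* arrays of BeadChip 1 and WT mouse 2 were dim, with bright probes 2.17 to 4.12-fold and 3.86-fold over background. Over all Old mice these stood 5.11 ± 3.14-fold over background in *Rage-/-* and 8.51 ± 2.61-fold in WT mice (mean ± SD; two-sided exact permutation test over mice, p = 0.0996), and 11766 ± 1936 probes were detected per array in *Rage-/-* against 13851 ± 1679 in WT mice (p = 0.0952, where the smallest p the design allows is 0.00433). All values are log2 intensities after background correction and quantile normalization. A difference is *Rage-/-* minus WT in a linear model of limma over the 29 arrays. The model holds the 6 groups and 5 surrogate variables, columns that stand for unwanted variation. Each fitted alone, BeadChip accounted for 72.6% of the variance of the first column and group for 47.2%. In the other columns group accounted for 8.90% to 23.8%. Since a fitted difference is corrected for these columns and the value of a mouse is not, a difference need not equal that of the 2 group means.

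Few transcripts set the Old genotypes apart. Of 13277 probes tested, 7 (0.0527%) passed a Benjamini-Hochberg adjusted p of 0.05 in limma, 3 higher (0.0226%) and 4 lower (0.0301%) in *Rage-/-* mice, while 735 (5.54%) had an unadjusted p under 0.05. Without surrogate variables 8 probes were called, 3 of them among the 7, and 2238 had an unadjusted p under 0.05. Among 8190 genes, each given by its brightest probe, the single values of the groups did not overlap for 56 genes (0.684%) higher and 25 (0.305%) lower in *Rage-/-* mice. The 7 genes called were *EGFP*, *C4b* and *Plac8*, which rose, and *Adgrf5*, *Pisd-ps3*, *Tmem181a* and *Srr*, which fell.

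No tested probe is named for *Ager*, so the loss of its own transcript could not be read here, nor the genotype labels checked by it. The probe for the enhanced green fluorescent protein, EGFP, read 8.64, 8.34, 8.61, 8.18, 9.84 and 9.45 in *Rage-/-* mice 1 to 6, against 4.89, 4.57, 4.73, 4.69 and 4.58 in WT mice 2 to 6. It was detected in 6 of 6 *Rage-/-* and 0 of 5 WT mice, so its signal followed the label in every Old array. *EGFP* signal was at least 11.6-fold higher in *Rage-/-* mice, set against the lowest signal that counts as detected, with a fitted difference of 4.51 (SE 0.20, adjusted p = 7.89e-13). EGFP is a jellyfish protein that mice do not encode, and how its sequence entered these mice is likewise not given. Its signal therefore does not show the state of *Ager*, and its probe was inferred from a mean.

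*Adgrf5*, an adhesion G protein-coupled receptor of endothelial cells known also as GPR116, moved the other way. Its probe read 4.66, 5.24, 4.49, 4.62, 5.08 and 4.71 in *Rage-/-* mice and 7.96, 8.26, 8.26, 8.22 and 8.62 in WT mice, being detected in 0 of 6 and 5 of 5. *Adgrf5* was at least 6.02-fold lower in *Rage-/-* mice (difference -3.40, SE 0.17, adjusted p = 8.88e-12). Both genes were called in every alternative that tested them and within BeadChip 5 (4.93 for *EGFP*, -3.47 for *Adgrf5*), where 5 probes (0.0377%) were called. Neither was particular to Old mice: the difference of *Adgrf5* was -3.60 in Young and -3.48 in MA mice, that of *EGFP* 3.70 and 3.53. The MA arrays lay on BeadChip 4 in *Rage-/-* and on BeadChip 2 in WT mice. Genotype and BeadChip thus cannot be told apart in MA mice.

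**Figure D1:**
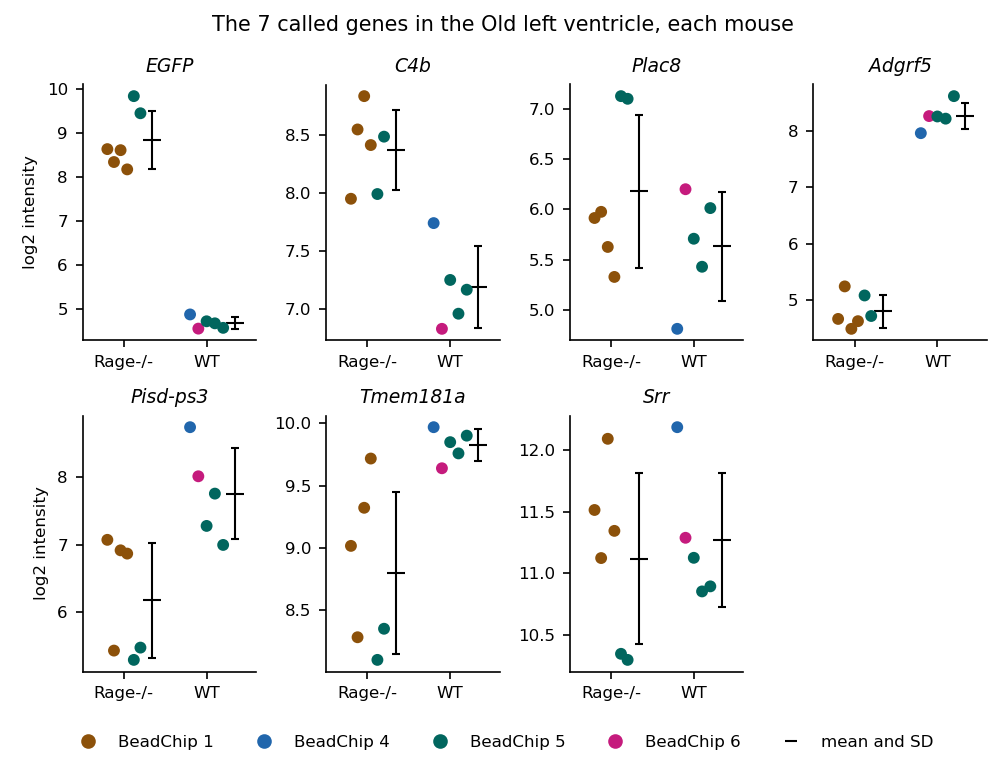
Log2 intensity (vertical axis) of the 7 called genes in each Old mouse, *Rage-/-* left and WT right, with points coloured by BeadChip and bars for mean and SD (n = 6 and 5). The groups lie fully apart for *EGFP*, *Adgrf5* and *C4b*, with *C4b* between 7.95 and 8.83 in *Rage-/-* mice against 6.83 to 7.74 in WT mice; the groups of the other 4 genes overlap.

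Of the remaining genes that fell, *Pisd-ps3*, a pseudogene of the mitochondrial enzyme that makes phosphatidylethanolamine, had the largest difference. Its values were 7.07, 5.44, 6.91, 6.87, 5.30 and 5.48 in *Rage-/-* mice and 8.73, 8.004, 7.27, 7.75 and 6.99 in WT mice, so that 5 of 6 *Rage-/-* mice lay below every WT mouse. The difference was -1.96 (SE 0.22, adjusted p = 2.54e-05) and -1.83 within BeadChip 5, and the call was lost without surrogate variables (-1.57, adjusted p = 0.09), in the Old arrays alone (adjusted p = 0.393) and with a replicate block (-1.92, adjusted p = 0.0662). *Pisd* itself and the pseudogenes *Pisd-ps1* and *Pisd-ps2* had no named tested probe, and near-identical copies may share signal with this one.

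*Tmem181a*, which encodes a membrane protein, read 9.02, 8.28, 9.32, 9.72, 8.10 and 8.35 in *Rage-/-* mice, against 9.97, 9.64, 9.85, 9.76 and 9.90 in WT mice. The WT values were tightly grouped, and 5 of 6 *Rage-/-* mice lay below all of them, with only mouse 4 inside their range. The difference was -1.18 (SE 0.22, adjusted p = 0.0352) and -1.64 within BeadChip 5. Leaving out single mice ended this call in 7 of 11 cases, with an adjusted p of up to 0.297 without *Rage-/-* mouse 6 (0.000236 to 0.393 over all alternatives). It was lost without surrogate variables (-1.03, adjusted p = 0.106), and it held without WT mouse 2 (-1.54) and without the 4 *Rage-/-* arrays of BeadChip 1 (-1.62).

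*Srr*, serine racemase, which turns L-serine into D-serine, rested on the model more than on the single values. It read 11.51, 11.12, 12.09, 11.34, 10.35 and 10.30 in *Rage-/-* mice and 12.18, 11.29, 11.13, 10.85 and 10.89 in WT mice, with means of 11.12 ± 0.69 and 11.27 ± 0.54. The groups overlapped, yet within BeadChip 5 both *Rage-/-* mice lay below the 3 WT mice, and the fitted difference was -0.64 (SE 0.11, adjusted p = 0.022). Without surrogate variables it was -0.15, the call was lost within BeadChip 5 (-0.65, adjusted p = 0.274), with the BeadChip as a fixed block (adjusted p = 0.382), without *Rage-/-* mouse 5 or 6, without WT mouse 2 and without the 4 *Rage-/-* arrays of BeadChip 1 (-0.80, adjusted p = 0.0974), and the other 2 probes of the gene had differences of -0.14 and 0.00. Over the alternatives the adjusted p of *Srr* ranged from 0.000552 to 1.

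Complement, a cascade of plasma proteins that tags and lyses targets and that local macrophages and fibroblasts also make, held 1 of the 2 immune genes called in Old hearts. *C4b*, the fourth component, which forms part of the C3 convertase, read 7.95, 8.55, 8.83, 8.41, 7.99 and 8.48 in *Rage-/-* mice and 7.74, 6.83, 7.25, 6.96 and 7.17 in WT mice. All 6 *Rage-/-* mice lay above all 5 WT mice, and *C4b* rose by 0.98 (SE 0.18, adjusted p = 0.0443), with 1.12 within BeadChip 5, where it was not called (adjusted p = 0.256). Its close copy *C4a* read 7.92, 8.12, 8.48, 7.95, 8.57 and 8.80 in *Rage-/-* mice, against 7.76, 7.16, 7.27, 7.70 and 7.56 in WT mice, again without overlap, with a difference of 0.85 (SE 0.23, adjusted p = 0.51) that was not called and 0.96 at its second probe. The 2 genes are nearly identical, so their probes may read both. The call of *C4b* stood close to the threshold: it was lost with the BeadChip as a fixed block (1.10, adjusted p = 0.324), and held in 6 of 13 other settings and in 1 of 11 fits that left out a mouse (adjusted p 0.0638 without WT mouse 2, 0.00101 to 0.386 over all alternatives, and 0.0295 without the 4 *Rage-/-* arrays of BeadChip 1).

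Of 34 complement genes listed, 13 were measured. *C4b* was called, and 12 of the 13 had a difference above 0, against 53.4% of all genes. Within BeadChip 5 the sign was the same as over all Old mice for 9 of the 13, and for 5833 of all 8190 genes. The median difference of the list was 0.21 (0.25 within BeadChip 5), beside 0.01 over all genes, and it lay above 0 in each of 24 alternatives (0.04 to 0.27). The subunits of C1q, the antibody-binding starter of the classical pathway, differed among themselves: *C1qa* had 0.56 and *C1qb* 0.42, neither called, while *C1qc* had 0.00. *C1qa* read 6.54, 8.08, 7.19, 6.74, 7.66 and 7.38 in *Rage-/-* mice and 6.87, 6.501, 6.76, 6.92 and 6.65 in WT mice, with 4 *Rage-/-* mice above all WT mice. *Serping1*, the C1 inhibitor, had 0.37, and *Cfp*, properdin of the alternative pathway, 0.22. The remaining members lay between -0.14 (*Cd55*, a brake on the convertases) and 0.21 (*C2*), among them *C8b* and *Vtn* of the terminal step, *Cd59a* that blocks it, and *Masp1* of the lectin pathway.

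*Plac8*, a cysteine-rich protein of monocytes, interferon-exposed leukocytes and other cells, was the third gene that rose. Its probe was dim, detected in 3 of 6 *Rage-/-* and 4 of 5 WT mice, and read 5.91, 5.98, 5.63, 5.33, 7.12 and 7.10 in *Rage-/-* mice, against 4.81, 6.20, 5.71, 5.43 and 6.01 in WT mice. The 2 *Rage-/-* mice of BeadChip 5 lay above every WT mouse, and the 4 of BeadChip 1 did not. The difference was 1.12 (SE 0.20, adjusted p = 0.0348), 1.42 within BeadChip 5 and 0.55 without surrogate variables, where it was not called (adjusted p = 0.303). With the BeadChip as a fixed block it was 1.41 and not called (adjusted p = 0.124). Leaving out single mice ended the call in 7 of 11 cases, with an adjusted p of up to 0.297 without *Rage-/-* mouse 6 (0.0864 without WT mouse 2, and 0.00491 to 0.455 over all alternatives); without the 4 *Rage-/-* arrays of BeadChip 1 it was 1.36 (adjusted p = 0.0252).

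Among the genes not called, the chemokine *Ccl8*, which draws monocytes and T cells through CCR8 and other receptors, had the largest difference without overlap in the immune lists. Its values were 6.55, 7.06, 7.47, 6.70, 7.18 and 7.74 in *Rage-/-* mice and 6.18, 5.88, 5.68, 5.99 and 5.95 in WT mice. The groups did not overlap, and the difference was 1.22 (SE 0.29, adjusted p = 0.289) and 1.65 within BeadChip 5 (adjusted p = 0.338). It passed the threshold in 3 of 12 other settings and without the 4 dim *Rage-/-* arrays (1.59, adjusted p = 0.00192), with an adjusted p of up to 0.905 over the alternatives.

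The stretches around the starts of *Plac8* and *Ccl8* are shown for the large differences above 0 of these 2 genes. Among the measured immune genes whose start sequences were at hand, only *S100a8* had a larger difference. It was left out for its overlap, though the groups of *Plac8*, which was called, overlapped too. The stretches are RefSeq promoters of build GRCm38.p6, 250 bases before the start and 50 from it on. The window of the first of 2 *Plac8* starts is chr5:100572156-100572455 on the minus strand, and that of *Ccl8* is chr11:82114935-82115234 on the plus strand. Capitals mark the motif found in each.
Plac8: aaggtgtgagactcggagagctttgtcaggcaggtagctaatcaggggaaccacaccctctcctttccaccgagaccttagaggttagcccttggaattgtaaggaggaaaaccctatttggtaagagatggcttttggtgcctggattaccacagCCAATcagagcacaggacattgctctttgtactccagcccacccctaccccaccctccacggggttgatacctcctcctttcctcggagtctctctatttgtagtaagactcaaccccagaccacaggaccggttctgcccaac
Ccl8: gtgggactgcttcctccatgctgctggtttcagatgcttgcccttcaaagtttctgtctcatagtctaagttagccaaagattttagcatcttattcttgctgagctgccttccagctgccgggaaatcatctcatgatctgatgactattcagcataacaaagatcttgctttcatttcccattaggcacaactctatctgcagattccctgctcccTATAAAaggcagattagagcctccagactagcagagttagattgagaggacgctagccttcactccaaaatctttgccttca
*Plac8* holds a CCAAT box 94 bases before the start, and *Ccl8* a TATA box, TATAAA, 32 bases before it. Both strands were searched for CCAAT, for TATAAA, for TTCNNNGAA, the form bound by STAT factors, and for TTTCNNTTT, a part of the interferon-stimulated element, and none overlapped. Of 32851 windows of the same length, 37.4% hold CCAAT, 13.6% TATAAA, 8.3% TTCNNNGAA and 10.6% TTTCNNTTT. Neither of the 2 windows holds the last pair of motifs.

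**Figure D2:**
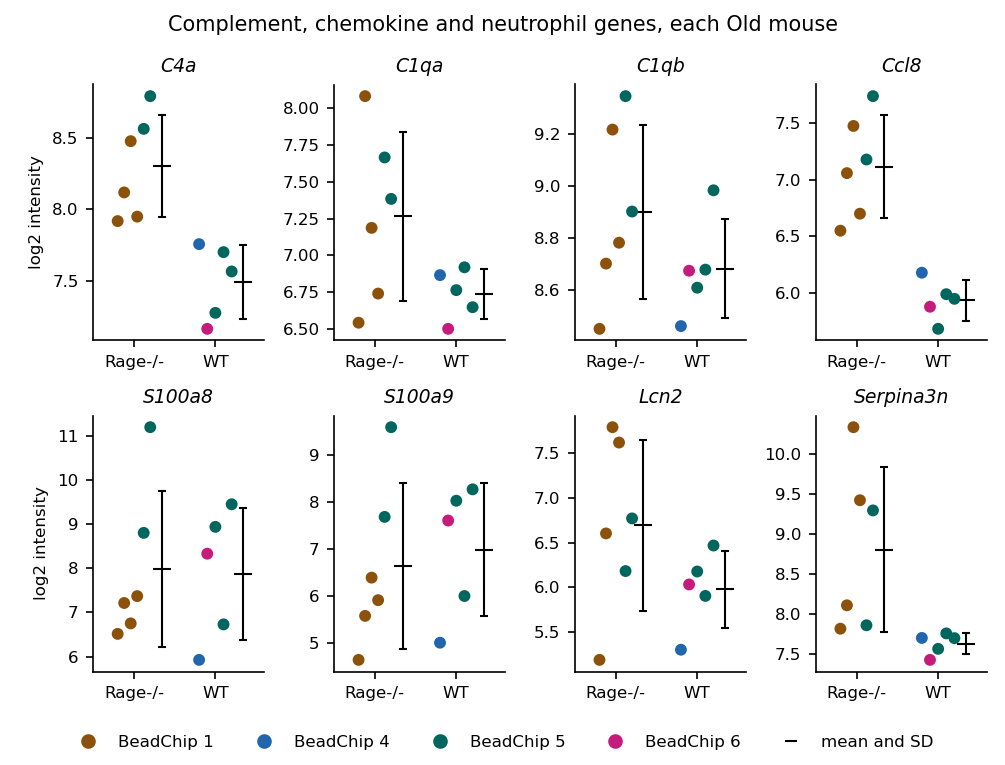
Log2 intensity (vertical axis) of 8 complement, chemokine and neutrophil genes in each Old mouse, *Rage-/-* left and WT right, coloured by BeadChip, with mean and SD (n = 6 and 5). *C4a*, *Ccl8* and *Serpina3n* lie higher in all *Rage-/-* mice, whereas *S100a8* spans 6.51 to 11.19 in *Rage-/-* mice and 5.92 to 9.45 in WT mice.

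The protease inhibitor *Serpina3n*, an acute phase protein, read 7.82, 8.11, 10.34, 9.42, 7.86 and 9.30 in *Rage-/-* mice, against 7.71, 7.43, 7.57, 7.76 and 7.70 in WT mice. The WT mice were within a narrow band, and 3 *Rage-/-* mice stood far above it while the other 3 were just above. The difference was 1.05 (SE 0.37, adjusted p = 0.711), was not called and was 0.91 within BeadChip 5. With *Lcn2*, the iron-withholding lipocalin (0.82), *Timp1*, an inhibitor of matrix proteases (0.58), and *Cp*, ceruloplasmin (0.13), all 4 measured acute phase genes of 18 listed had a difference above 0 and none was called (median 0.70, and 0.39 within BeadChip 5). The second probe of *Cp* had -0.13.

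Of the ligands of RAGE and the receptors it shares them with, none was called. Of 21 listed, 13 were measured and 7 had a difference above 0, with a median of 0.09 (0.12 within BeadChip 5) that lay below 0 in 3 of 24 alternatives. *S100a8*, a subunit of calprotectin, read 6.51, 7.21, 6.75, 7.37, 8.80 and 11.19 in *Rage-/-* mice and 5.92, 8.33, 8.94, 6.73 and 9.45 in WT mice. Its group means were 7.97 ± 1.77 and 7.87 ± 1.49, and the difference of 1.52 (SE 0.60, adjusted p = 0.822) arose in the adjusted fit, with 1.57 within BeadChip 5. Its partner *S100a9* had the same form, with means of 6.64 ± 1.76 and 6.99 ± 1.42 and a fitted difference of 1.07. *Lgals3*, galectin-3, a lectin that binds glycated proteins, read 8.58, 9.41, 10.26, 9.28, 8.70 and 8.64 in *Rage-/-* mice, against 8.58, 8.13, 8.07, 8.34 and 8.14 in WT mice, with a difference of 0.54 (adjusted p = 0.901). *S100a1*, the S100 protein of cardiomyocytes, had -0.08, and the toll-like receptors *Tlr2* and *Tlr4*, which also read S100 proteins and HMGB1, had -0.03 and 0.29. Of 17 measured genes of RAGE signalling the median was 0.02 (-0.05 within BeadChip 5), with *Myd88*, the adaptor of the toll-like receptors, at 0.33 (adjusted p = 0.835).

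Cytokine and interferon genes lay mostly above 0, and none was called. Of 29 measured interferon response genes, 26 had a difference above 0 (median 0.26, 0.47 within BeadChip 5), and of 22 cytokines, chemokines and NF-kB genes 19 had (median 0.13 and 0.21). Examples were *Igtp* (0.62), a GTPase that guards against intracellular parasites, *Ifit3* (0.51), an antiviral protein, the chemokine *Ccl9* (0.66) and the adhesion molecule *Icam1* (0.44). *Irgm1*, a GTPase of the same family as *Igtp*, went the other way at its brightest probe (-0.47, adjusted p = 0.557). Its second, dimmer probe had 0.31, so the probes of *Irgm1* disagreed. The mean scores of the interferon list per mouse overlapped, at -0.15 to 0.35 in *Rage-/-* and -0.22 to 0.05 in WT mice.

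MHC class I and class II genes had medians on opposite sides of 0 in this fit. Class I, which shows peptides from inside the cell to CD8 T cells, had a median of 0.13 over 20 genes, 16 above 0, and of 0.30 within BeadChip 5, but of -0.11 without surrogate variables and -0.04 without *Rage-/-* mouse 6. *H2-T10* read 6.45, 7.53, 7.07, 6.63, 6.48 and 7.13 in *Rage-/-* mice and 6.23, 5.98, 5.62, 5.68 and 5.89 in WT mice, without overlap (0.77, adjusted p = 0.538, 1.02 within BeadChip 5). Its probe may also read other class I genes, which are alike in sequence. Class II, which shows peptides taken up from outside to CD4 T cells, had a median of -0.18 over 11 genes, 9 of them below 0 (-0.20 within BeadChip 5). *H2-Aa*, an alpha chain of class II, read 7.21, 7.003, 7.37, 7.36, 7.84 and 8.08 in *Rage-/-* mice, against 8.10, 8.68, 8.89, 7.93 and 8.25 in WT mice, with -0.54 (adjusted p = 0.853).

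**Figure D3:**
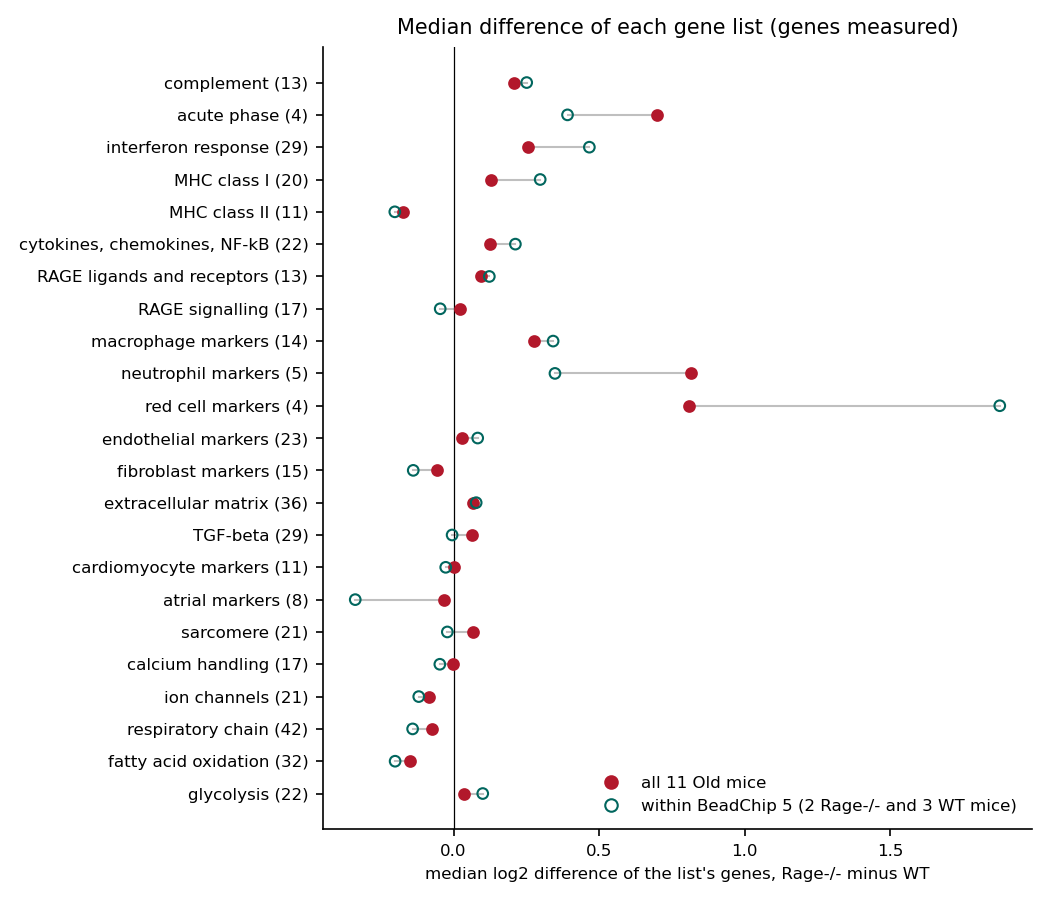
Median difference in log2 intensity (horizontal axis) of each gene list, *Rage-/-* minus WT, over all 11 Old mice (filled) and within BeadChip 5 (open), with the number of genes measured in brackets. Complement (0.21), interferon (0.26) and macrophage markers (0.28) lie above 0, and MHC class II (-0.18) and fatty acid oxidation (-0.15) below it in both; lists of few genes such as red cell markers move most.

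Of 17 measured calcium handling genes of the cardiomyocyte, 2 did not overlap between the groups. Both were lower in *Rage-/-* mice and neither was called, while over all 8190 genes 25 (0.305%) were lower without overlap. *Pln*, phospholamban, the brake on the calcium pump of the sarcoplasmic reticulum, read 11.21, 11.09, 11.06, 10.78, 11.51 and 11.07 in *Rage-/-* mice and 12.05, 12.12, 11.72, 11.83 and 11.80 in WT mice. Even the highest *Rage-/-* mouse lay below the lowest WT mouse, with a difference of -0.70 (SE 0.20, adjusted p = 0.538) and -0.45 within BeadChip 5. *Ryr2*, the release channel of the same store, read 11.56, 11.61, 11.65, 11.84, 11.95 and 11.60 in *Rage-/-* mice, against 12.22, 12.15, 12.07, 12.05 and 12.08 in WT mice (-0.40, SE 0.12, adjusted p = 0.62, -0.27 within BeadChip 5). Its other 2 probes, which were dim, had 0.53 and 0.18, so the probes of *Ryr2* disagreed.

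*Atp2a2*, the calcium pump itself, read 14.88, 14.68, 14.75, 15.00, 14.17 and 14.78 in *Rage-/-* mice and 14.63, 13.96, 14.00, 14.03 and 13.95 in WT mice. WT mouse 2 stood with the *Rage-/-* mice, the difference was 0.43 (adjusted p = 0.531, 0.50 within BeadChip 5), and the other probes had -0.01 and -0.08. *Actc1*, cardiac alpha-actin, had the same form, at 14.60 to 14.73 in *Rage-/-* mice against 14.70 in WT mouse 2 and 13.95 to 14.08 in the other 4 WT mice, with 0.45 (adjusted p = 0.419, 0.67 within BeadChip 5) and -0.19 at its second probe. Without WT mouse 2 the difference of *Actc1* was 0.68 and passed the threshold (adjusted p = 0.0136, the lowest of all alternatives, which reached 0.912). Over the 17 calcium handling genes the median was 0.00 (-0.05 within BeadChip 5), with 8 above 0, and over 21 sarcomere genes 0.07, with 15 above 0, none called and a median of -0.02 within BeadChip 5. Markers of cardiac stress, among them *Myh7*, the myosin of the fetal ventricle (0.74, adjusted p = 0.881, 0.28 within BeadChip 5), had a median of 0.16 over 21 genes, which was 0.07 within BeadChip 5.

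**Figure D4:**
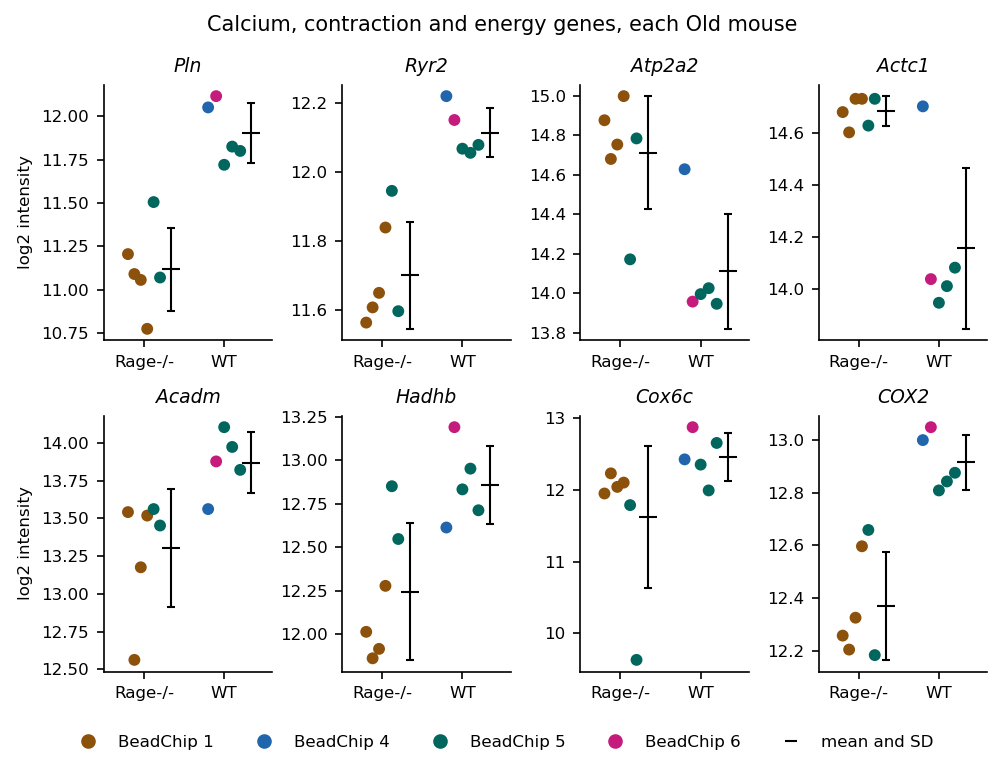
Log2 intensity (vertical axis, each panel with its own range) of 8 genes of calcium handling, contraction and energy supply in each Old mouse, *Rage-/-* left and WT right, coloured by BeadChip, with mean and SD (n = 6 and 5). *Pln*, *Ryr2* and *COX2* lie lower in every *Rage-/-* mouse, while WT mouse 2 (BeadChip 4) stands apart from the other WT mice in *Atp2a2* and *Actc1*.

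The lists of energy supply differed in sign, and no gene of them was called. Of 32 measured genes of fatty acid oxidation, the main fuel route of the adult heart, 25 had a difference below 0 (median -0.15, -0.20 within BeadChip 5), and of 42 of the respiratory chain 32 had (median -0.07 and -0.14). *Acadm*, the medium-chain dehydrogenase, read 13.54, 12.56, 13.18, 13.52, 13.56 and 13.45 in *Rage-/-* mice and 13.56, 13.88, 14.11, 13.97 and 13.82 in WT mice, nearly without overlap (-0.34, adjusted p = 0.628, -0.43 within BeadChip 5). *Cox6c*, a subunit of complex IV, had the largest value of these lists, -1.19 (adjusted p = 0.289), in which *Rage-/-* mouse 6 at 9.63 stood far below the other 5 at 11.79 to 12.23. Glycolysis had a median of 0.04 over 22 genes, 13 above 0, with 0.10 within BeadChip 5 and -0.23 without surrogate variables.

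Of the mitochondrial genome's own genes, a list chosen after its values were seen, 7 were measured and 5 were below 0 (median -0.37, -0.31 within BeadChip 5). *COX2*, a subunit of complex IV, read 12.26, 12.20, 12.32, 12.60, 12.66 and 12.18 in *Rage-/-* mice, against 12.999, 13.05, 12.81, 12.84 and 12.88 in WT mice, without overlap (-0.46, adjusted p = 0.807). *ATP6* of the ATP synthase read 12.92, 12.98, 13.17, 12.84, 12.91 and 12.88 in *Rage-/-* mice, against 13.49, 13.41, 13.26, 13.19 and 13.24 in WT mice (-0.37, adjusted p = 0.826). Neither gene was called. *CYTB* and *ND5* went the other way, with 0.31 and 0.33.

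Markers of the labelled tissue were present. In Old mice, 11 of 12 cardiomyocyte markers were measured, with a median of 0.00, while no B cell or lung marker had a named tested probe. Atrial markers had a median of -0.03 over 8 of 9 genes (-0.34 within BeadChip 5). Their scores varied widely between mice, at -1.55 to 1.44 in *Rage-/-* and -0.25 to 0.63 in WT mice. Macrophage markers had a median of 0.28 over 14 of 20 genes, 9 above 0 (0.34 within BeadChip 5), led by *Plac8*; *C1qa*, *C1qb* and *Folr2*, the folate receptor of resident macrophages (0.66), lay above 0, but *Csf1r* (-0.21), *Adgre1* (-0.04), *Lyz2* (-0.26) and *Cd163* (-0.25), which define the lineage, lay below. The mean scores per mouse ran from -0.37 to 0.34 in *Rage-/-* and -0.23 to 0.07 in WT mice. In whole tissue, more cells of a type and more RNA per cell cannot be told apart. Neutrophil markers had a median of 0.82 over 5 of 14 genes, but of 0.35 within BeadChip 5 and 0.10 without surrogate variables, and their scores overlapped, at -0.98 to 1.37 in *Rage-/-* and -1.01 to 0.60 in WT mice. Of these genes, *Elane* read 5.04 to 6.10 in *Rage-/-* mice and 4.53 to 5.03 in WT mice, being detected in 2 of 6 and 0 of 5. Red cell markers (4 of 11) had a median of 0.81, 1.88 within BeadChip 5 and 0.18 without *Rage-/-* mouse 6. *Hbb-bs*, a beta globin, read 12.03 to 14.40 in *Rage-/-* mice, against 14.44 in WT mouse 2 and 11.08 to 12.15 in the other 4 WT mice. The part of these cells in the complement, macrophage and interferon values was not tested.

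Endothelial markers, apart from *Adgrf5*, had a median of 0.04 over the other 22, with 8 below 0 and none called. *Vwf*, the clotting factor that endothelium stores, read 9.26, 9.42, 10.33, 9.42, 9.30 and 9.45 in *Rage-/-* mice and 8.97, 8.92, 9.12, 8.90 and 9.09 in WT mice (0.46, adjusted p = 0.63). Fibroblast markers had a median of -0.06 over 15 genes (-0.14 within BeadChip 5), extracellular matrix genes 0.07 over 36 (0.08), and genes of TGF-beta signalling 0.06 over 29 (-0.0049), none of them called. *Lum*, the collagen-binding lumican, was the matrix gene with the strongest test (-0.50, adjusted p = 0.63).

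Of the 10 genes without overlap and not called that had the highest moderated t, 6 belonged to none of the groups of genes above and did not lie near *Ager*. *Gdpd5*, a phosphodiesterase that releases choline from glycerophosphocholine, read 6.62, 7.51, 6.65, 6.52, 6.44 and 6.20 in *Rage-/-* mice and 5.09, 6.10, 5.97, 5.91 and 6.04 in WT mice (0.71, SE 0.16, adjusted p = 0.233). *Gch1*, which starts the synthesis of tetrahydrobiopterin, the cofactor of nitric oxide synthases, read 8.75, 9.09, 9.07, 8.72, 8.58 and 8.64 in *Rage-/-* mice, against 8.52, 8.04, 8.01, 7.999 and 8.27 in WT mice (0.43, SE 0.11, adjusted p = 0.461). The difference of *Gch1* was 0.45 within BeadChip 5, while that of *Gdpd5* was 0.35. The second probe of *Gch1*, which was dim, had -0.07. *Sh3gl2*, an endophilin of membrane uptake, had 0.74 (0.84 within BeadChip 5), *Adam15*, a membrane-bound protease, 0.53 (0.27), the histone gene *H4c1* 0.44 (0.37) and the lysosomal sphingomyelinase *Smpd1* 0.33 (0.32). *Smpd1* read 11.805 to 12.28 in *Rage-/-* mice and 11.48 to 11.67 in WT mice. The other probes of *Smpd1*, which were dimmer, had 0.15 and -0.02, and there the groups overlapped.

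Of the genes without overlap that were lower in *Rage-/-* mice, *Cyfip2*, a regulator of actin branching, had -0.67 (-0.38 within BeadChip 5), the unnamed transcript *1110038F14Rik* -0.64 (-0.29), *Cacybp*, a partner of calcyclin in protein breakdown, -0.59 (-0.40), the peroxisomal protease *Lonp2* -0.33 (-0.32) and the oxidoreductase *Zadh2* -0.26 (-0.24). *Lonp2* lay between 9.24 and 9.50 in *Rage-/-* mice and between 9.67 and 9.94 in WT mice. *Cacybp* was detected in 2 of 6 *Rage-/-* and 5 of 5 WT mice. Their adjusted p ran from 0.531 to 0.851. The second probe of *1110038F14Rik*, which was dim, had 0.13.

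*Ager* lies on chromosome 17, in the class III part of the mouse major histocompatibility complex, and 3 of the 7 called genes lie on the same chromosome. They are *C4b*, 9 protein-coding genes away from *Ager*, *Adgrf5*, 203 away on the same side, and *Tmem181a*, 492 away on the other side. Of 8176 measured genes with a chromosome entry, 414 lie on chromosome 17. Of the 7 called, *EGFP* is not a mouse gene, and the chromosome of *Pisd-ps3* is given as unknown. Of 414 measured genes of chromosome 17, 10 (2.42%) did not overlap between the groups, against 70 of 7762 (0.902%) elsewhere. Chromosome 17 did not stand alone in this: on the X chromosome it was 6 of 241 (2.49%), and of the 7 mitochondrial genes 2. The share of genes with an unadjusted p under 0.05 was 5.07% on chromosome 17 and 5.45% elsewhere. In limma the share was higher near *Ager*, at 10 of 94 genes (10.6%) within 100 genes of it and 5 of 27 (18.5%) within 20. Of these 27 genes, 2 did not overlap between the groups, *C4b* and the transcription factor *Pbx2*, which is the neighbour of *Ager*. The counts by distance took only protein-coding genes by annotation and left out *C4a* and *H2-T10*, whose groups did not overlap either. *Pbx2* read 6.64, 6.84, 6.98, 6.57, 6.09 and 5.72 in *Rage-/-* mice and 5.10, 5.68, 5.50, 5.19 and 5.58 in WT mice (0.86, SE 0.21, adjusted p = 0.344, 0.46 within BeadChip 5). The second probe of *Pbx2*, nearly as bright, had 0.37, and there the groups overlapped. *Enpp5*, an ectonucleotidase-like protein 211 genes away on the side of *Adgrf5*, read 7.46, 7.27, 7.48, 7.72, 7.89 and 7.76 in *Rage-/-* mice, against 8.24, 8.40, 8.32, 8.28 and 8.26 in WT mice (-0.52, SE 0.11, adjusted p = 0.0782).

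**Figure D5:**
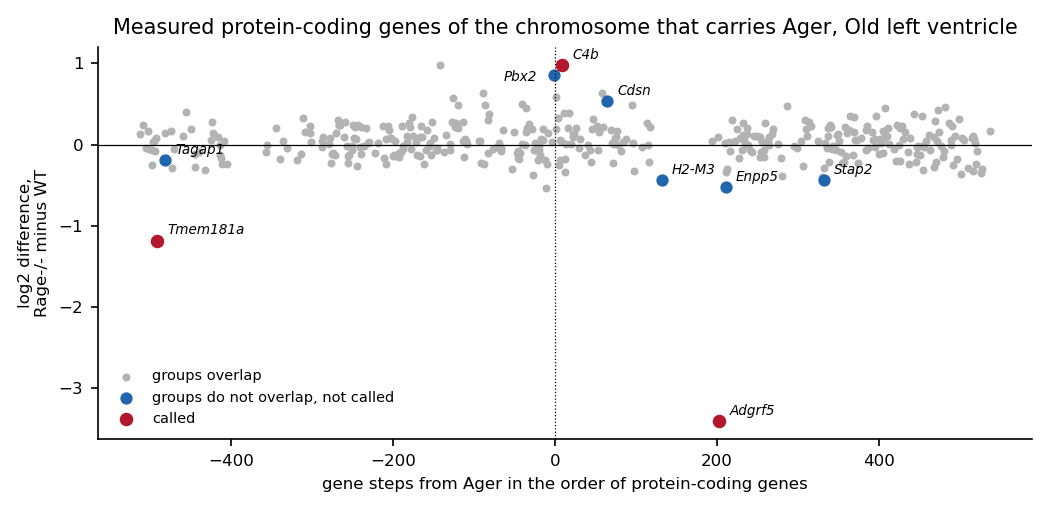
Difference in log2 intensity, *Rage-/-* minus WT in Old mice (vertical axis), of the measured protein-coding genes of chromosome 17, set by the number of protein-coding genes between each and *Ager* (horizontal axis, 0 at the dotted line). Called genes are red, genes without overlap between the groups blue and all others grey; *C4b* (0.98) and *Pbx2* (0.86) stand beside *Ager*, *Adgrf5* (-3.40) 203 genes away and *Tmem181a* (-1.18) 492 genes away on the other side.

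Whether the differences were particular to age was tested in the same fit. The genotype difference changed between Young and Old mice for 30 probes (0.226%), 28 (0.211%) towards higher values in Old *Rage-/-* mice, and between MA and Old mice for 20 (0.151%), 15 of them (0.113%) towards lower values. Without WT mouse 2 the 20 were 0 in limma, with 972 at an unadjusted p under 0.05, and without *Rage-/-* mouse 6 the 30 were 13. The 20 were also 0 in limma with the BeadChip as a fixed block, with 988 at an unadjusted p under 0.05. In MA mice the genotypes lay on different BeadChips, so a change from MA to Old mice cannot be told apart from a BeadChip difference. *C4b* averaged 6.83 ± 0.32 in Young *Rage-/-* mice against 7.65 ± 0.19 in Young WT mice, a difference of -0.85 that turned to 0.98 in Old mice (change 1.83, adjusted p = 0.000412). *C4a* changed in the same way (1.64, adjusted p = 0.0143). *Plac8* (change 1.69, adjusted p = 0.00403), *Tmem181a* (-1.45, adjusted p = 0.0269) and *Pisd-ps3* (-2.29, adjusted p = 0.000233) also differed between Young and Old mice, and *Srr* between MA and Old mice (-0.87, adjusted p = 0.034). The Old arrays enter both the differences and their changes, so the 2 are not independent.

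The interferon genes whose difference changed were lower in *Rage-/-* mice when Young. *Igtp* averaged 7.79 ± 0.32 in Young *Rage-/-* and 10.73 ± 0.58 in Young WT mice (difference -2.90), while in Old mice it averaged 8.03 ± 0.52 and 7.46 ± 0.23, so that its genotype difference changed by 3.52 (adjusted p = 0.000174). *Irgm2* (2.75, adjusted p = 0.000277) and *Ifit3* (2.27, adjusted p = 0.0143) changed in the same direction, as did *Ccl9* (1.69, adjusted p = 0.0388) and *Icam1* (1.26, adjusted p = 0.025). None of these 5 genes was called in Old mice, where their differences lay between 0.32 and 0.66.

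Of 10 genes also measured by PCR, 9 had a tested probe here, and these were picked on differences in the same mice. In Old mice *Adgrf5* was called among them, and *C4a* and *P2ry1*, a receptor for ADP, had groups that did not overlap. *P2ry1* read 8.90, 8.53, 8.57, 8.87, 8.88 and 8.78 in *Rage-/-* mice and 9.005, 9.10, 9.09, 9.07 and 9.25 in WT mice (-0.27, adjusted p = 0.939). *Rps24* of the small ribosomal subunit had -0.35 (adjusted p = 0.538), *Fitm2*, which forms lipid droplets, -0.14, and *Rgs4*, a brake on G protein signalling, -0.03. The other probes of *Rps24*, which were dim, had 0.36 and -0.10. The reference genes *Hprt* and *Ldha* had 0.26 and 0.10 and were not called. The second probe of *Hprt*, detected in all Old mice, had -0.27.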

How the data were processed

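LV RNA of 29 mice was hybridised to MouseWG-6 v2.0 BeadChips of 45281 probes. The authors exported the intensities with GenomeStudio 2011.1 and deposited them without background correction; beside each intensity stands a deposited score of 1 minus the detection p-value. The authors' own normalized log2 values, made in lumi (R 4.0.2) by variance stabilization followed by robust splines, served here only as an alternative.

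In R 4.3.3 with limma 3.58.1, neqc corrected and quantile-normalized the intensities (offset 16), and 13277 probes were kept, which had to reach a detection p below 0.01 on no fewer than 25% of arrays. One limma model had a term for each of the 6 groups and 5 surrogate variables, the leading ones of 7 that were computed in 5 rounds with the groups protected. P-values were adjusted by Benjamini-Hochberg over all tested probes, and a probe was called under 0.05. The scripts were tested on simulated data.

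The platform annotation gave 1 gene to 11504 of these probes, several to 6 and none to 1767, and each of the 8190 genes is given by its brightest probe. The EGFP probe was inferred by matching the mean of the authors' values to that listed for EGFP (distance 3.79e-06, next probe 6.24e-05). Named are all called genes, the 10 genes with the highest and the 10 with the lowest t among those without overlap, the PCR genes, up to 4 genes per list by t, and all measured complement, RAGE ligand and neutrophil genes; names outside this rule were added after their values were seen. The lists (604 of 941 entries measured) and members were chosen with earlier results of these data known. The score of a list is, for each mouse, how far its genes lie on average from their means over the 11 Old arrays. The number of arrays limits the precision, and the labels do not name litters or cages, so p-values measure the spread between these mice. Alternatives changed 1 choice at a time, except for the fit of Old arrays alone, which also left out the surrogate variables.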

Additional observations from a re-analysis of the deposited data

Results flagged for a closer look

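Single mice stood far from the rest of their group in 23 of 206 groups of values looked at in Old mice, where chance gives about 1 in 20. Of the 5 Old WT mice, mouse 2, on BeadChip 4, was the one most often apart. It had 10903 detected probes and a signal 3.86-fold over background, the lowest of its group, and read low for *Gdpd5* (5.09), *Hprt* (9.70), *S100a11* (9.53), *S100a1* (12.13), *S100a10* (7.50) and *ND4L* (6.89), and high for *C2* (6.58), *S100a4* (5.40), *Irgm1* (11.25), *Actc1* (14.70), *Atp2a2* (14.63) and *Cbr2* (8.06). WT mouse 3 was high for *Cd55* (6.09), WT mouse 4 for *S100a13* (9.04) and WT mouse 5 for *Sln* (10.07), the sarcolipin of atrial muscle.

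Of the Old *Rage-/-* mice, mouse 2, the dimmest of the Old arrays, was high for *Gdpd5* (7.51) and *S100a13* (9.85) and low for *Tlr4* (4.82). Mouse 3 was high for *Vwf* (10.33), mouse 5 low for *CYTB* (14.03) and mouse 6 low for *Cox6c* (9.63).

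The genotype difference changed with age, by an interaction test in the limma fit, for 13 named genes. Between Young and Old mice it changed by -2.29 for *Pisd-ps3*, 1.69 for *Plac8*, -1.45 for *Tmem181a*, 1.83 for *C4b*, 1.64 for *C4a*, 3.52 for *Igtp*, 2.27 for *Ifit3*, 2.75 for *Irgm2*, 1.69 for *Ccl9* and 1.26 for *Icam1*. Between MA and Old mice it changed by -0.87 for *Srr*, -1.36 for *1110038F14Rik* (adjusted p = 0.0351) and 1.63 for *Trim30a*, an interferon-induced TRIM protein (adjusted p = 0.0322). These changes from MA mice cannot be told apart from a BeadChip difference, since the MA genotypes lay on different BeadChips.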

How the results depend on the processing

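The count of 7 calls (3 higher, 4 lower) was 19 (8 and 11) with the authors' normalized values and 15 (6 and 9) with log2 intensities without background correction, each holding all 7. It was 3 (0 and 3) with detection in at least 75% of arrays, which drops probes detected in 1 genotype, 2 (1 and 1) in the Old arrays alone without surrogate variables, and 4 (1 higher) with the BeadChip as a fixed block; without a filter on dim probes 1 was higher. Without surrogate variables it was 8, sharing 3 with the 7, and the probes at an unadjusted p under 0.05 were 2238 in place of 735 (292 with a replicate block). Without single mice it was 3 to 7 (higher 1 to 3, lower 2 to 4), with 3 without *Rage-/-* mouse 5 or 6 and 4 without *Rage-/-* mouse 3 or WT mouse 4, 5 or 6. Without the 4 *Rage-/-* arrays of BeadChip 1, an alternative chosen after seeing the data, it was 7. *EGFP* and *Adgrf5* were called in every alternative that tested them, and no called difference changed its sign.

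The 30 probes whose difference changed between Young and Old were 67 with the authors' values, 19 with the stricter detection, 17 without surrogate variables, 10 with the BeadChip fixed and 13 to 34 without single mice (15 and 13 without *Rage-/-* mouse 5 and 6). The 20 between MA and Old were 0 in limma without surrogate variables (1297 at an unadjusted p under 0.05), 0 with the BeadChip fixed (988), 13 with it as a random block and 0 to 18 without single mice: 0 without WT mouse 2 (972), 1 without WT mouse 4 or 6, 3 without *Rage-/-* mouse 5, 9 without *Rage-/-* mouse 2 or WT mouse 5, 11 without WT mouse 3 and 13 without *Rage-/-* mouse 6. The cause of these shifts was not tested.

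The labels do not say what the replicate numbers mean, and the mice were not treated as pairs. Correlations of same-numbered deviations ran from -0.24 to 0.48, too few values to tell whether the numbers pair mice. With a replicate block the count was 3 (1 higher, 2 lower). On 5 dim arrays, low transcripts lie near background, which limits what can be read of *Plac8*, *Pbx2* and *Elane*.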
